A study of Mus musculus with 26 samples.

Results

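The EGF receptor family in keratinocytes was followed through 10 genes, which were selected by symbol from the deposited count table and are 10 of its 56738 symbols. They are the ligand genes *Epgn*, *Tgfa*, *Hbegf*, *Ereg*, *Areg* and *Btc*, the receptor genes *Egfr*, *Erbb2* and *Erbb3*, and the sheddase gene *Adam17*. All 10 passed the filter on expression, a mean normalized count over 10, which left 16893 genes for testing. The data are bulk RNA sequencing of primary keratinocytes from C57BL/6NJ mice aged 2 days, 5 WT and 8 *Pla2g4d*-deficient (KO) animals. KO mice carry a CRISPR-Cas9 allele, em1, that lacks exon 3, and heterozygotes were crossed back to the same strain and then bred to homozygosity. Epidermal cells of each mouse were grown for 4 days at a low calcium concentration in EpiLife medium with the HKGS supplement, and were then either left untreated (basal) or given IL17A at 20 ng/ml together with TNFα at 20 ng/ml over 24 h, with wells of the same animal pooled. This gave 26 libraries in 4 groups, WT basal (n = 5), WT with cytokines (n = 5), KO basal (n = 8) and KO with cytokines (n = 8). The HKGS supplement contains EGF, so that receptor ligand was present in every group. Litter, sex and sequencing batch of the mice were not given, so that litter and genotype cannot be told apart. Total counts per library were between 42072745 and 63120607 in WT basal, 46393919 and 72562322 in WT cytokine, 45910502 and 74595457 in KO basal, and 42726350 and 78102858 in KO cytokine libraries.

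EGFR is a receptor tyrosine kinase that pairs with itself or with ERBB2 and ERBB3 once a ligand binds. The ligands are made as membrane-anchored precursors, and metalloproteases such as ADAM17 release them. In the epidermis the pathway is known for driving proliferation and migration of basal keratinocytes and for delaying their differentiation, and it signals in large part through ERK, which induces its own feedback inhibitors.

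Deletion of exon 3 cannot be checked with counts per gene, since they include reads of the other exons. *Pla2g4d* ranged from 1.22 to 4.63 CPM (counts scaled to the size of the library) in WT basal, 1.15 to 2.98 CPM in KO basal, 28.6 to 65.2 CPM in WT cytokine and 29.2 to 59.2 CPM in KO cytokine libraries. The libraries had the markers of basal keratinocytes: the 8 genes of that list summed to a median of 44199 CPM in WT basal, 43501 CPM in KO basal, 35399.6 CPM in WT cytokine and 35566 CPM in KO cytokine libraries, with *Krt5* as the most abundant. Of these 8, *Krt15* fell with cytokines in WT (from a mean of 15.2 to 3.19 CPM) and KO cells (from 15.1 to 4.46 CPM). Of 8 symbols searched for markers of differentiating keratinocytes, 2 stood for loricrin, of which only *Lor* was listed, which left 7 genes. *Krt1* was the most abundant of them in basal and *Sbsn* in cytokine libraries. The 7 summed to medians of 4113 CPM in WT basal, 2595 CPM in KO basal, 943 CPM in WT cytokine and 578 CPM in KO cytokine libraries. With cytokines *Krt1*, *Krt10*, *Ivl*, *Lor*, *Flg* and *Dsg1a*, 6 of these 7, fell in WT and in KO cells, and KO cells were lower than WT cells in 2 (*Krt1* and *Dsg1a*) under basal conditions and in 4 (*Krt1*, *Krt10*, *Lor* and *Dsg1a*) with cytokines. Of all tested genes, 5.26% in WT and 4.55% in KO cells were called lower with cytokines. Between the genotypes 1.07% were called lower in KO cells under basal conditions and 0.556% with cytokines. The list of differentiation markers therefore moved along with both comparisons reported here, and its part in them was not tested. Fewer cells of a type and less RNA per cell cannot be told apart in bulk libraries.

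Other cell types left smaller signals. The 6 melanocyte markers, *Tyrp1* the most abundant and none at 0 in any library, summed to 429 to 610 CPM in WT basal, 466 to 628 CPM in KO basal, 333 to 475 CPM in WT cytokine and 306 to 404 CPM in KO cytokine libraries. *Tyr* fell with cytokines in WT cells, and *Pmel*, *Dct* and *Tyr* fell in KO cells. The 8 fibroblast markers summed to 27.6 to 51.0 CPM over all libraries, most of it *Vim*, and *Lum* was at 0 in 22 of 26 libraries. Of the 7 tested, *Col1a2* fell with cytokines in WT (log2 fold change -1.67) and KO cells (-1.01). Its means were low, at 1.73 and 0.545 CPM in WT basal and cytokine libraries and 1.08 and 0.534 CPM in KO ones. The 8 immune cell markers summed to 18.7 to 54.7 CPM, mainly from *Cd68*, which rose with cytokines in WT cells (log2 fold change 0.75), while *Cd207* and *Cpa3* were at 0 in all 26 libraries, *Cd3e* in 20 and *Ptprc* in 16. The 5 endothelial markers summed to 2.44 to 6.86 CPM, with *Cdh5* at 0 in 25 libraries. Of the 3 endothelial markers tested, *Pecam1* and *Kdr* rose and *Vwf* fell with cytokines in both genotypes. *Pecam1* was higher in KO cells under basal conditions (0.95), at means of only 0.816 CPM in WT and 1.59 CPM in KO basal libraries. Over all tested genes, 8.65% in WT and 6.33% in KO cells were called higher with cytokines, and 5.26% and 4.55% lower. Under basal conditions 1.61% were called higher in KO cells. The part of these cells in the results was not tested. Genes outside the naming rule are named here because they were called or at 0, after their values were seen.

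The ligand genes differed widely in level. Divided by the length of their exons, *Epgn*, which encodes epigen, was by far the highest under basal conditions in WT cells, at 205 ± 49.3 CPM per kb (SD, n = 5), above 99.2% of the tested genes with a known length. *Tgfa* followed with 8.96 ± 1.87 CPM per kb. *Areg* (2.60 ± 0.764 CPM per kb) and *Hbegf* (2.57 ± 0.599 CPM per kb) lay near the median of all genes, 2.39 CPM per kb, and *Ereg* was at 1.78 ± 0.429 CPM per kb. *Areg*, *Hbegf* and *Ereg* did not differ beyond their spread, whereas *Btc* was lowest with 0.446 ± 0.215 CPM per kb. With cytokines the order in WT cells was *Epgn* (117 ± 28.1 CPM per kb), *Tgfa* (17.6 ± 2.17 CPM per kb), *Hbegf* (11.8 ± 2.09 CPM per kb), *Areg* (2.86 ± 0.748 CPM per kb), *Ereg* (2.71 ± 0.310 CPM per kb) and *Btc* (0.715 ± 0.264 CPM per kb), with only *Areg* and *Ereg* closer than their spread. In KO cells the basal order was *Epgn* (241 ± 37.0 CPM per kb), *Tgfa* (8.47 ± 1.16 CPM per kb), *Hbegf* (4.45 ± 0.598 CPM per kb), *Areg* (2.25 ± 1.16 CPM per kb), *Ereg* (2.12 ± 0.399 CPM per kb) and *Btc* (0.311 ± 0.125 CPM per kb), again with *Areg* and *Ereg* inside each other's spread. With cytokines KO cells had *Epgn* at 131 ± 14.6, *Tgfa* at 18.1 ± 1.20 and *Hbegf* at 12.05 ± 2.06 CPM per kb, followed by *Ereg*, *Areg* and *Btc*. The receptors were closer together, with *Erbb3* at 22.5 ± 2.43, *Erbb2* at 17.9 ± 1.64 and *Egfr* at 14.8 ± 1.49 CPM per kb in WT basal cells, with overlapping values between neighbours of this order, and *Adam17* reached 10.7 ± 0.509 CPM per kb. The length was that of all annotated exons of a gene merged, from 1222 bp for *Areg* to 6835 bp for *Tgfa* among the ligands. Which transcripts the cells expressed was not examined, and the orders depend on this length. In undivided CPM, *Epgn* (mean 371) and *Tgfa* (61.3) were also the highest ligands in WT basal libraries. *Egfr* (171) was then above *Erbb3* (142) and *Erbb2* (97.1).

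The makeup of the ligand transcripts shifted with cytokines. *Epgn* took 92.5 ± 1.44% of the summed ligand level per kb in WT basal and 93.2 ± 0.515% in KO basal libraries, and 76.1 ± 4.33% and 78.2 ± 2.26% with cytokines. The share of *Tgfa* went from 4.18 ± 1.09% to 11.8 ± 2.51% in WT and from 3.30 ± 0.314% to 10.9 ± 1.26% in KO cells. The share of *Hbegf* went from 1.17 ± 0.183% to 7.87 ± 1.35% in WT and from 1.73 ± 0.130% to 7.21 ± 0.996% in KO cells. The ranges of the basal and cytokine libraries did not overlap for any of these 3 shares in either genotype. Without *Epgn*, the 5 other ligand genes summed to 16.4 ± 3.22 CPM per kb in WT basal and 35.7 ± 4.83 CPM per kb in WT cytokine libraries, and to 17.6 ± 2.94 and 36.3 ± 3.68 CPM per kb in KO cells. With *Epgn* included, the sum was lower on average with cytokines. It was 222 ± 51.0 CPM per kb in WT basal and 152 ± 30.3 CPM per kb in WT cytokine libraries, where the ranges overlapped. In KO cells it was 258 ± 39.5 CPM per kb under basal conditions and 167 ± 16.1 CPM per kb with cytokines, without overlap. The shares were not tested, since they are bound to each other by their sum.

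**Figure D1:**
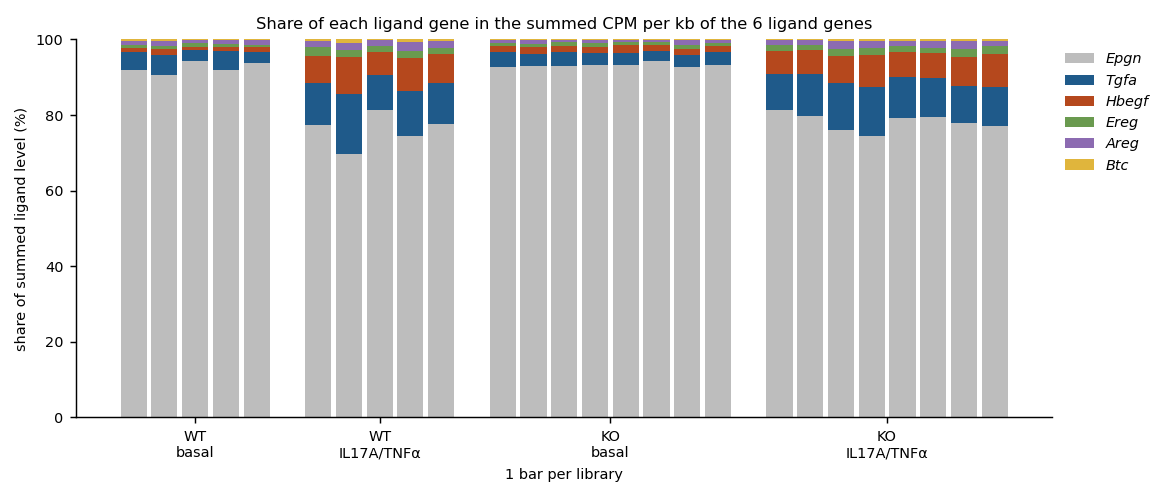
Share (%) of each of the 6 ligand genes in their summed CPM per kb of exon, with 1 stacked bar per library in the 4 groups. *Epgn* (grey) takes 90.6 to 94.3% in the basal libraries and 69.7 to 81.4% in the cytokine libraries, where *Tgfa* (blue) and *Hbegf* (red) take more.

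The first comparison asked how the inflammatory cytokines act on the family in WT cells. Of the 10 genes, 4 changed past both thresholds, 0.1 for the adjusted p and 1.5 for the fold change, as did 13.9% of all tested genes. *Hbegf*, *Tgfa* and *Ereg* rose and *Epgn* fell. In KO cells 4 genes changed as well, beside 10.9% of all genes: *Hbegf*, *Tgfa* and *Btc* rose and *Epgn* fell. The median log2 fold change of the 10 genes was 0.15 in WT and 0.28 in KO cells, beside 0.01 and 0.00 over all genes. Values of the basal and cytokine libraries did not overlap for 4 of the 10 genes in WT (*Erbb2*, *Hbegf*, *Tgfa* and *Adam17*) and for 4 in KO cells (*Epgn*, *Hbegf*, *Tgfa* and *Adam17*), while this held for 20.5% and 11.8% of all genes. Both genotypes were treated alike, but their basal and cytokine libraries enter the genotype comparisons too, so that the comparisons share samples.

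**Figure D2:**
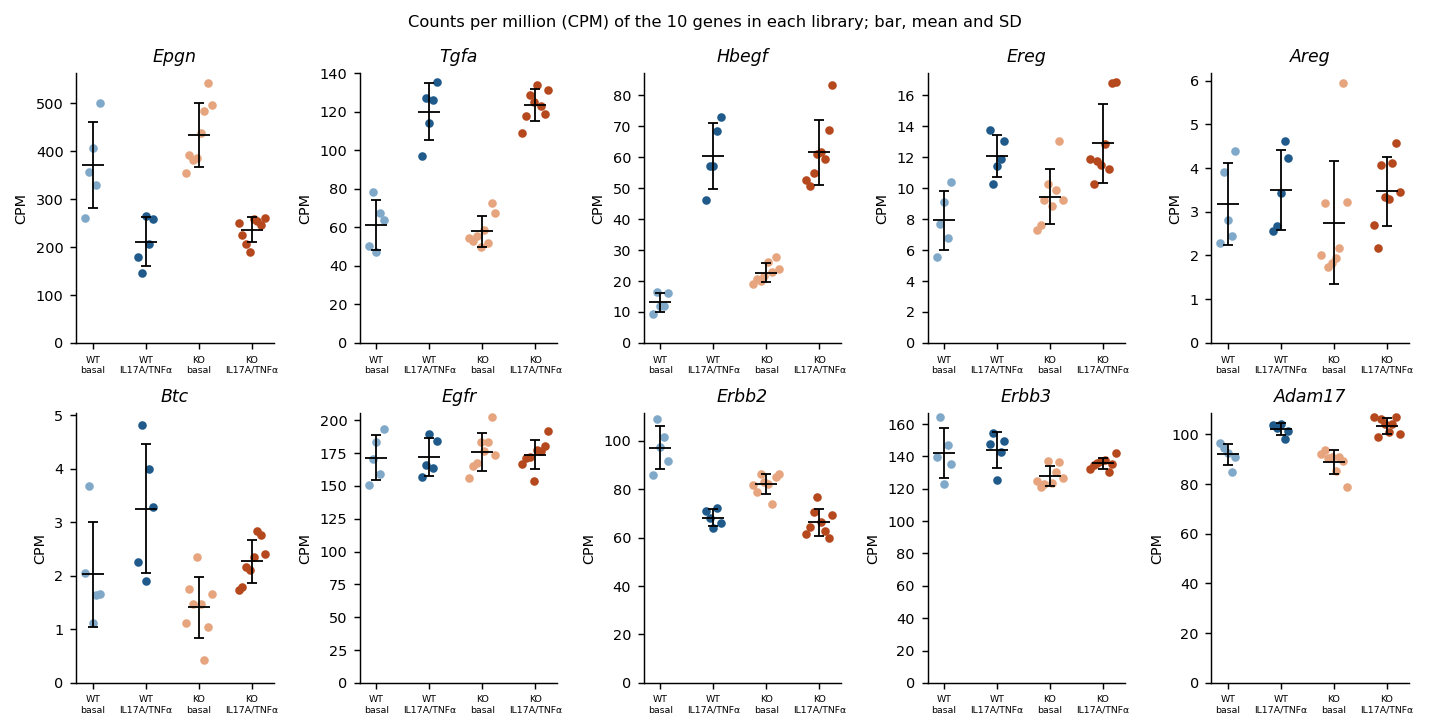
CPM of each of the 10 genes (1 panel per gene, linear axis from 0) in the 26 libraries; points are libraries, the bar is the group mean and the whiskers are the SD. *Hbegf* basal points of KO (19.2 to 27.7 CPM) lie above those of WT (9.36 to 16.4 CPM), and all cytokine points are at 46.1 CPM or more.

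*Hbegf* encodes heparin-binding EGF-like growth factor, a ligand that keratinocytes release in wounds. It is on the minus strand of chromosome 18 (chr18:36637980-36649677 in GRCm39) with 6 exons, and 16.3% of its exon bases are shared with a gene on the other strand. This share was 3.99% for *Adam17*, 3.89% for *Ereg*, 1.77% for *Tgfa* and 0.166% for *Erbb2*, and reads of both strands could not be told apart, since the strand setting of counting is not given. In WT basal libraries it measured 9.36, 16.4, 12.04, 11.8 and 16.2 CPM, and in the cytokine libraries of the same 5 mice 46.1, 57.1, 57.2, 68.6 and 73.1 CPM. In KO basal libraries it measured 19.2 CPM at the lowest, 22.2 CPM at the median and 27.7 CPM at the highest, and in KO cytokine libraries 50.8, 60.2 and 83.4 CPM. Every cytokine library was above every basal library, and every KO basal library was above every WT basal library, whereas the cytokine libraries of both genotypes overlapped. The log2 fold change with cytokines was 2.20 in WT (adjusted p = 1.53e-12) and 1.44 in KO cells (adjusted p = 3.44e-11), with standard errors (SE) of 0.15 and 0.11. Within a mouse the increase was 3.48- to 5.82-fold (median 4.75) in 5 of 5 WT mice and 2.34- to 3.49-fold (median 2.67) in 8 of 8 KO mice.

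*Tgfa*, the gene of transforming growth factor α, lies on the plus strand of chromosome 6 (chr6:86172041-86252728, 6 exons). It measured 50.2, 78.1, 47.0, 67.3 and 63.6 CPM in WT basal and 97.2, 127, 114, 126 and 136 CPM in WT cytokine libraries. In KO cells it ranged from 49.97 over a median of 54.9 to 72.4 CPM under basal conditions and from 109 over 124 to 134 CPM with cytokines. All cytokine libraries lay above all basal ones in both genotypes. *Tgfa* rose by a log2 fold change of 0.97 (SE 0.11, adjusted p = 5.37e-08) in WT and 1.09 (SE 0.09, adjusted p = 4.81e-11) in KO cells, up in 5 of 5 and 8 of 8 mice.

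**Figure D3:**
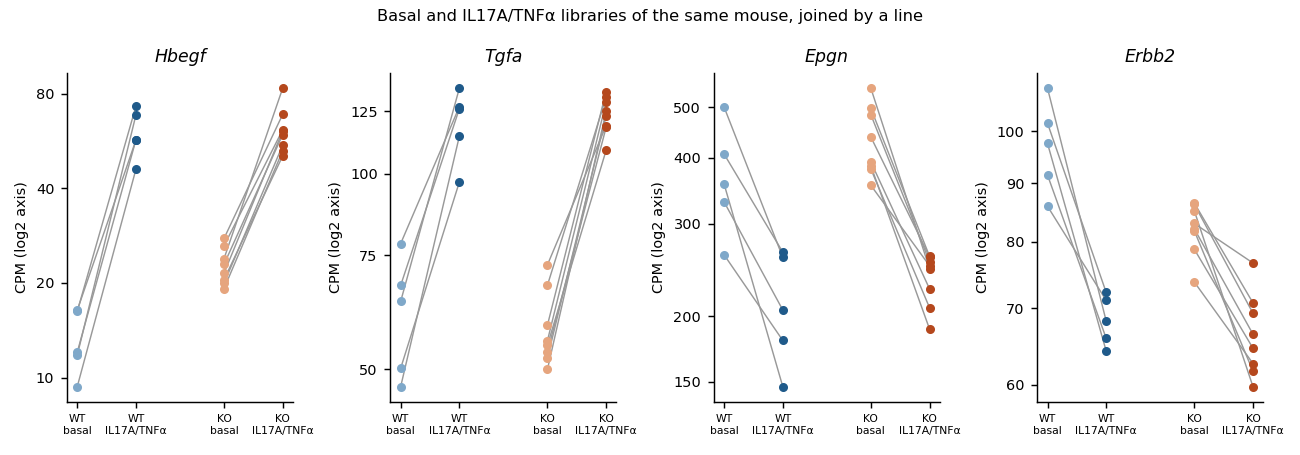
CPM on a log2 axis of *Hbegf*, *Tgfa*, *Epgn* and *Erbb2* in the basal and the cytokine library of each mouse, joined by a line, for 5 WT and 8 KO mice. *Hbegf* and *Tgfa* are higher and *Epgn* and *Erbb2* lower with cytokines in all 13 mice.

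The other 4 ligand genes lie next to each other on chromosome 5, in an interval of 375561 bp in GRCm39 that holds no other protein-coding gene. *Epgn* (chr5:91175323-91183074, plus strand, 5 exons) is followed after 39082 bp by *Ereg* (chr5:91222157-91241505, plus strand, 5 exons), after another 45945 bp by *Areg* (chr5:91287451-91296291, plus strand, 6 exons) and after 208828 bp by *Btc* (chr5:91505120-91550883, minus strand, 6 exons). They encode epigen, epiregulin, amphiregulin and betacellulin. Their responses to the cytokines differed in direction.

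*Epgn* measured 262, 357, 407, 330 and 499.9 CPM in WT basal and 179.7, 147, 265, 205 and 259 CPM in WT cytokine libraries. In KO cells it ranged from 355 over a median of 416 to 543 CPM under basal conditions and from 189 over 248 to 260.0 CPM with cytokines. All KO cytokine libraries were below all KO basal ones, while in WT cells 4 of 5 cytokine libraries were below every basal library. *Epgn* fell by a log2 fold change of -0.81 (SE 0.15, adjusted p = 8.5e-05) in WT and -0.88 (SE 0.12, adjusted p = 7.79e-07) in KO cells, and was lower in 5 of 5 and 8 of 8 mice.

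*Ereg* went the other way at a much lower level. It measured 5.54, 7.71, 9.13, 6.80 and 10.4 CPM in WT basal and 13.8, 10.3, 11.4, 11.9 and 13.0 CPM in WT cytokine libraries, and from 7.32 over a median of 9.25 to 13.1 CPM in KO basal and from 10.2 over 11.8 to 16.9 CPM in KO cytokine libraries. The groups overlapped in both genotypes, but the cytokine library was the higher one in 5 of 5 WT and 8 of 8 KO mice. The log2 fold change was 0.61 in WT (SE 0.16, adjusted p = 0.0043), just past the threshold on the fold change, and 0.45 in KO cells (SE 0.13, adjusted p = 0.0074), under it. Without WT replicate 1 (log2 fold change 0.44, adjusted p = 0.0475) or WT replicate 4 (0.57, adjusted p = 0.0245) the WT value was under the threshold as well, its adjusted p lying between 0.00075 and 0.0475 over all alternatives. The difference between the genotypes was -0.16 (95% confidence interval -0.58 to 0.26).

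*Btc* was near the limit of what the depth allows, with 20 to 342 counts per library, in which the mates of a pair may have been counted separately. It measured 2.05, 3.68, 1.13, 1.64 and 1.65 CPM in WT basal and 2.26, 4.82, 1.91, 3.99 and 3.29 CPM in WT cytokine libraries, and from 0.433 over a median of 1.47 to 2.35 CPM in KO basal and from 1.74 over 2.26 to 2.84 CPM in KO cytokine libraries. It was higher with cytokines in 5 of 5 WT and 7 of 8 KO mice, and the groups overlapped. The log2 fold change of 0.68 passed in KO cells (SE 0.26, adjusted p = 0.0448) and not in WT cells (0.68, 95% confidence interval 0.03 to 1.34, adjusted p = 0.109). The KO call depended on single mice, and the WT result on single mice and on the method. The KO call was lost without KO replicate 6 (log2 fold change 0.49, adjusted p = 0.148), whose basal value was the lowest, and without KO replicate 7 (0.58, adjusted p = 0.134), with a range of 0.0182 to 0.148 over all alternatives. The WT value passed without WT replicate 2 (0.82, adjusted p = 0.0632), KO replicate 4 (0.67, adjusted p = 0.0997) or KO replicate 6 (0.67, adjusted p = 0.0775), with DESeq2 (0.68, adjusted p = 0.088), and with the mouse as a replicate block (0.71, adjusted p = 0.0733). Over all alternatives its adjusted p in WT lay between 0.0632 and 0.320.

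*Areg* did not pass in any comparison. Like *Btc* it was low, with 100 to 355 counts per library. *Areg* ranged from 2.29 to 4.40 CPM in WT basal, 2.56 to 4.62 CPM in WT cytokine, 1.74 to 5.94 CPM in KO basal and 2.18 to 4.57 CPM in KO cytokine libraries, so that all groups overlapped. Its log2 fold change with cytokines was 0.14 in WT (95% confidence interval -0.44 to 0.72) and 0.34 in KO cells (-0.12 to 0.80). The KO value was 0.53 without KO replicate 7 (adjusted p = 0.0468, under the threshold on the fold change) and 0.23 to 0.45 without any other single mouse, with an adjusted p of 0.0468 to 0.553 over all alternatives.

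The starts of these genes are shown for *Tgfa*, *Epgn* and *Ereg*, ligands that moved, and for their neighbour *Areg*, as the 250 bases before the start of the canonical transcript, 5′ to 3′ on the strand of the gene, in GRCm39. Capitals mark matches, on either strand, to TGACTCA (AP-1) and TGACGTCA (CRE), and searches were also made for TTGCNNAA (C/EBP) and for the degenerate NF-kB consensus. Of 21770 promoters of protein-coding genes of the same length, 4.02% hold the AP-1, 1.69% the CRE, 9.34% the C/EBP and 4.23% the NF-kB consensus. The windows are chr6:86171791-86172040 for *Tgfa*, chr5:91175073-91175322 for *Epgn*, chr5:91221907-91222156 for *Ereg* and chr5:91287201-91287450 for *Areg*, all on the plus strand.
Tgfa: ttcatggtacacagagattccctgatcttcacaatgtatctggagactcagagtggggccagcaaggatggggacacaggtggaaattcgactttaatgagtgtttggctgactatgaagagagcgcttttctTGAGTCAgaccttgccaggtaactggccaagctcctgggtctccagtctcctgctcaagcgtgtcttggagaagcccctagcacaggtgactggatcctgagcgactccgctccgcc
Epgn: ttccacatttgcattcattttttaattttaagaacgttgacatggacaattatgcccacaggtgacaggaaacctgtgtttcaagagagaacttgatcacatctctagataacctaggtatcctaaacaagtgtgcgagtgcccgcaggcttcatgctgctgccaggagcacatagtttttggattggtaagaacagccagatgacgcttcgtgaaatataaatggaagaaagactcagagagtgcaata
Ereg: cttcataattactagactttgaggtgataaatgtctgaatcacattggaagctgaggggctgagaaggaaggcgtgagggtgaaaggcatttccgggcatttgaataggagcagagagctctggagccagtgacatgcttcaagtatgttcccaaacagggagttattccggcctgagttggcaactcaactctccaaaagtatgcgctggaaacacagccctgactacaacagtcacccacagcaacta
Areg: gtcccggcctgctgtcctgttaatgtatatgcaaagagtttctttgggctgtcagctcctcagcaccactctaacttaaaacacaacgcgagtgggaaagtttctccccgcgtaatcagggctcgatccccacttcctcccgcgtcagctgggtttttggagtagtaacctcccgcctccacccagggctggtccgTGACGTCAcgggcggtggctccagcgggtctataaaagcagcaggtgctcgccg
*Tgfa* holds 1 AP-1 match, from base -117 to -111, and *Areg* 1 CRE match, from -54 to -47. Of the windows not shown, that of *Erbb3*, a gene that did not pass with cytokines, holds 1 AP-1 match (-78 to -72), and the others hold none. *Epgn* and *Ereg* hold none of the 4 motifs. A match describes these letters and is neither a site nor a cause, and its absence says only that the letters are not in this window.

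Of the 12 other protein-coding genes within 500000 bp of this interval, 7 were tested. On the side of *Epgn* lies a cluster of chemokine genes. *Cxcl1*, at 91039094, measured 6.13 CPM in WT basal and 76.5 CPM in WT cytokine libraries, a log2 fold change of 3.65. In KO cells it rose by 2.82. Under basal conditions *Cxcl1* was higher in KO cells by 1.07 (edgeR, adjusted p = 1.54e-05). *Cxcl2*, *Cxcl3* and *Cxcl5* had means of only 0.248, 0.0486 and 0.0764 CPM in WT basal and 4.39, 1.46 and 1.20 CPM in WT cytokine libraries, too low under basal conditions for a fold to be given. *Cxcl2*, with a mean of 0.708 CPM in KO basal libraries, was also called higher there than in WT (edgeR, adjusted p = 0.0115). The other neighbours tested were not called in that comparison, in which 2.68% of all genes were called. *Rassf6*, farther out, rose by 0.71 in WT and 0.97 in KO cells. *Mthfd2l*, the gene between *Cxcl2* and *Epgn*, had a log2 fold change of 0.39 in WT and 0.02 in KO cells, under the threshold on the fold change. On the other side, *Parm1* did not pass (0.04 in WT and -0.04 in KO cells). With cytokines 13.9% of all genes were called in WT and 10.9% in KO cells. These neighbours were named after their values were seen.

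The receptor genes kept their levels or fell slightly. *Egfr* (chr11:16702198-16868158, plus strand, 28 exons), the receptor of all 6 ligands, ranged from 151 to 193 CPM in WT basal, 157 to 189 CPM in WT cytokine, 156 to 203 CPM in KO basal and 154 to 192 CPM in KO cytokine libraries. All 4 groups overlapped, and its log2 fold change with cytokines was 0.01 in WT (95% confidence interval -0.14 to 0.15) and -0.02 in KO cells (-0.13 to 0.09). *Erbb3* (chr10:128403392-128425811, minus strand, 28 exons), whose product has little kinase activity of its own, ranged from 121 to 165 CPM over all libraries, with a log2 fold change of 0.02 in WT (-0.10 to 0.14) and 0.08 in KO cells (-0.01 to 0.18).

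*Erbb2* (chr11:98303203-98328542, plus strand, 27 exons), which has no ligand of its own and serves as a partner, was the receptor gene with the largest response. It measured 86.0, 109, 97.6, 102 and 91.5 CPM in WT basal and 71.1, 68.2, 64.2, 72.3 and 65.9 CPM in WT cytokine libraries, and from 73.8 over a median of 82.6 to 86.5 CPM in KO basal and from 59.8 over 65.5 to 76.7 CPM in KO cytokine libraries. The WT groups did not overlap, 7 of 8 KO cytokine libraries lay below all KO basal ones, and each mouse had the lower value with cytokines. The log2 fold change was -0.51 in WT (SE 0.06, adjusted p = 2.21e-07) and -0.31 in KO cells (SE 0.05, adjusted p = 1.6e-05), in both cases past the threshold on p and under that on the fold change. The difference between the genotypes, 0.20, did not pass (95% confidence interval 0.04 to 0.37, adjusted p = 0.394).

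*Adam17* (chr12:21373510-21423672, minus strand, 19 exons) had one of the smallest spreads. It ranged from 85.05 to 96.4 CPM in WT basal, 98.2 to 104 CPM in WT cytokine, 78.7 to 93.8 CPM in KO basal and 98.8 to 107 CPM in KO cytokine libraries. All cytokine libraries were above all basal libraries. The log2 fold change was 0.15 in WT (SE 0.04, adjusted p = 0.0076) and 0.22 in KO cells (SE 0.03, adjusted p = 6.74e-06), far under the threshold on the fold change. With p alone, 6 of the 10 genes passed in WT and 7 in KO cells, beside 6221 and 6048 of all genes.

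**Figure D4:**
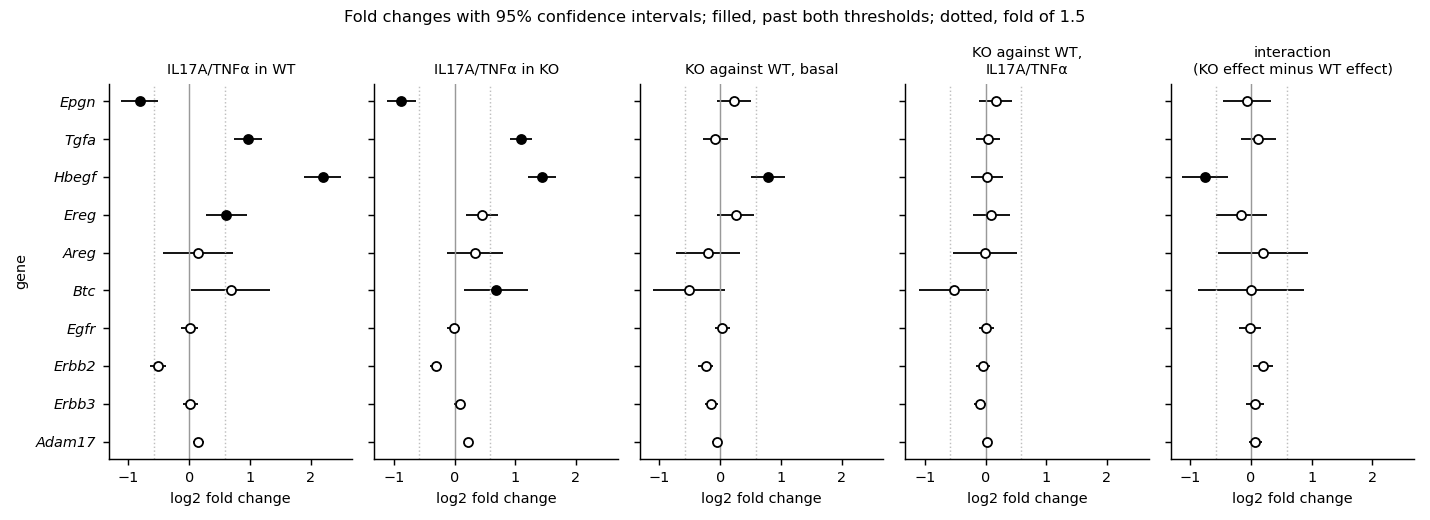
Log2 fold changes (points) with 95% confidence intervals (lines) of the 10 genes in the 5 comparisons; filled points are past both thresholds, and dotted lines mark a fold change of 1.5. *Hbegf* is the only gene filled in the KO against WT comparison under basal conditions (0.79) and in the interaction (-0.76).

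The comparison of the genotypes asked whether loss of *Pla2g4d* alters the family. Under basal conditions 1 of 10 genes differed, *Hbegf*, beside 2.68% of all genes, and *Hbegf* was the 1 gene whose groups did not overlap, beside 3.03% of all genes. It was higher in KO cells by a log2 fold change of 0.79 (SE 0.13, adjusted p = 0.00021), with 8 of 8 KO libraries above all 5 WT libraries. It stayed past both thresholds in all 19 alternatives, with values of 0.69 to 0.88. Over all tested genes the calls went from 453 to 824 when WT replicate 1 was left out. *Erbb2* was lower in KO cells by less than the threshold on the fold change (-0.24, SE 0.06, adjusted p = 0.0057). *Erbb3* (-0.15, SE 0.05, adjusted p = 0.0688) was also under that threshold, and its p depended on single mice. It exceeded 0.1 when 1 of these was left out: WT replicate 2 (-0.09, adjusted p = 0.310) or 4 (0.177), or KO replicate 1 (0.121), 2 (0.135), 3 (0.123) or 5 (0.124). It was 0.0056 to 0.310 over all alternatives, with 0.101 without the filter and 0.153 in a fit of the basal groups alone. The median over the 10 genes was -0.06, beside 0.00 over all genes. The intervals of *Epgn* (0.23, 95% confidence interval -0.05 to 0.51), *Ereg* (0.26, -0.05 to 0.56), *Tgfa* (-0.08, -0.29 to 0.12) and *Btc* (-0.51, -1.10 to 0.08) included 0, and *Btc* was at -0.19 without WT replicate 2 (adjusted p = 0.799, with 0.152 to 0.799 over all alternatives). With 1 mouse left out, *Epgn* ranged from 0.12 to 0.36 and *Ereg* from 0.15 to 0.37.

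With cytokines, edgeR's quasi-likelihood test called 0 of 10 genes between the genotypes, beside 0.704% of all genes, and DESeq2 and limma also called 0. No gene reached an unadjusted p under 0.05 (0 of 10, beside 15.0% of all genes), and none had groups without overlap (0 of 10, beside 1.08% of all genes). *Hbegf* had a log2 fold change of 0.03 (95% confidence interval -0.23 to 0.29), *Tgfa* of 0.04 (-0.16 to 0.24), *Epgn* of 0.16 (-0.11 to 0.44) and *Btc* of -0.52 (-1.10 to 0.06), the last being -0.33 without WT replicate 2. With 1 mouse left out, *Epgn* ranged from 0.057 to 0.26. The 10 genes had 0 calls whichever mouse was left out, but the number of genes called over all tested, 119, depended on single mice. It was 558 without WT replicate 1 and 291 without KO replicate 8. It was 61, 44, 47 and 60 without WT replicate 2, 3, 4 and 5, and 75, 62, 67, 55 and 51 without KO replicate 1, 2, 3, 5 and 6, and 180 in a fit of the cytokine groups alone.

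The interaction tested whether the cytokine response itself differed. It was called for 1 of 10 genes, again *Hbegf*, beside 0.219% of all genes, with a log2 difference of -0.76 (SE 0.18, adjusted p = 0.0519). The KO response was thus the smaller one, and it started from the higher basal level and ended at a level for which no difference was called (0.03, above). Leaving out 1 mouse removed this call in 4 cases, with the direction kept: WT replicate 3 (-0.75, adjusted p = 0.127) or 4 (-0.68, adjusted p = 0.241), or KO replicate 5 (-0.73, adjusted p = 0.134) or 6 (-0.75, adjusted p = 0.114). In a fit with mice as replicate block the difference was -0.78 (adjusted p = 0.00059), and over all alternatives the adjusted p lay between 0.00059 and 0.241. Over all tested genes the 37 calls became 80 with the replicate block, 60 with DESeq2, 92 without WT replicate 1 and 60 without KO replicate 8, and 23, 18, 21 and 19 without WT replicate 2, 4 or 5 or KO replicate 5.

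Genes with a profile like that of *Hbegf*, the ligand with the largest response, were looked for by the root mean square difference of mean-centred log2 CPM over the 26 libraries. The closest were *Il1a* (0.18), *Phlda1* (0.25) and *Nppb* (0.26), where *Hbegf* itself had an SD of 0.96. *Il1a* encodes a cytokine and *Nppb* a natriuretic peptide. For *Erbb2* the closest genes were *Rxra* (0.08), *Ap1b1* (0.09) and *Pkp1* (0.09), with an SD of 0.23 for *Erbb2*. These genes were picked for their likeness over all libraries, so that no test of them is given here, and *Phlda1* is also in a list described below.

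Genes that process the ligands were mixed. Of 11 listed, 3 rose and 2 fell with cytokines in WT cells, beside 13.9% of all genes called, and 3 rose and 1 fell in KO cells, beside 10.9%, while edgeR called 0 between the genotypes under basal conditions (beside 2.68% of all genes), with cytokines (0.704%) or in the interaction (0.219%). Unadjusted p under 0.05 was met by 3 of 11 under basal conditions (beside 22.4% of all genes), 4 of 11 with cytokines (15.0%) and 0 of 11 in the interaction (9.13%), and DESeq2 and limma also called 0 in each. *Adam12*, a metalloprotease that can cleave HB-EGF, rose from 59.6 to 159.5 CPM on average in WT cells, with 1.42 as log2 fold change (adjusted p = 1.9e-11), and by 1.15 in KO cells. *Rhbdf1*, which encodes the iRhom1 partner of ADAM17, rose by 0.95 (adjusted p = 7.03e-14) and 0.84. *Adam15* (-0.72, adjusted p = 9.34e-08) and *Timp3*, the gene of an inhibitor of ADAM17 (-0.68, adjusted p = 1.14e-07), fell in WT cells. *Timp3* also fell in KO cells (-0.81). The median of the list was -0.07 in WT and 0.00 in KO cells, beside 0.01 and 0.00 over all genes.

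Of 6 further ligand and receptor genes of the family, 4 passed the filter. *Nrg2*, the 1 gene of these 4 called with cytokines (beside 13.9% of all genes in WT and 10.9% in KO cells), fell from 2.04 ± 0.536 to 0.657 ± 0.337 CPM in WT cells (log2 fold change -1.64, adjusted p = 0.00066) and by -1.08 in KO cells (adjusted p = 0.0029). *Nrg1*, a ligand of ERBB3, was at 76.1 ± 10.9 CPM in WT basal and 94.3 ± 12.8 CPM in WT cytokine libraries (0.31, adjusted p = 0.0098, under the threshold on the fold change). *Nrg4* (0.53, adjusted p = 0.281) and *Egf* (-0.03, adjusted p = 0.979), the latter with a mean of 0.498 CPM in WT basal libraries, did not pass. *Erbb4* had at most 12 counts, with 0 in 21 of 26 libraries, and *Nrg3* had 0 in all 26. Between the genotypes edgeR, DESeq2 and limma called 0 of 4 under basal conditions and in the interaction (beside 2.68% and 0.219% of all genes with edgeR), with 0 at an unadjusted p under 0.05 (beside 22.4% and 9.13%). With cytokines edgeR and limma called 0 (beside 0.704% with edgeR), with 2 at an unadjusted p under 0.05 (beside 15.0%), and DESeq2 called 1, as did edgeR without WT replicate 1. Over all tested genes the latter fits called 156 and 558, beside 119 in the main fit.

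Feedback inhibitors of the pathway were called in part. Of 25 tested, 6 rose and 0 fell with cytokines in WT cells, beside 13.9% of all genes called (8.65% higher). In KO cells 3 rose and 0 fell, beside 10.9% of all genes called (6.33% higher). The list medians were 0.13 and 0.05, beside 0.01 and 0.00 over all genes. The counts were not tested against these shares. *Dusp4*, a phosphatase of ERK, went from 5.85 ± 2.08 to 19.7 ± 6.10 CPM in WT cells (log2 fold change 1.74, adjusted p = 7.8e-08) and also rose in KO cells (adjusted p = 1.19e-08). *Dusp6*, another ERK phosphatase, rose by 0.92 in WT cells (adjusted p = 1.89e-05). Under basal conditions 2 of 25 were higher in KO cells, beside 1.61% of all genes, *Dusp5* (WT 35.2 ± 6.40 CPM, KO 56.2 ± 7.65 CPM, log2 fold change 0.68, adjusted p = 0.0017) and *Dusp6* (5.79 ± 0.813 and 9.41 ± 1.37 CPM, 0.70, adjusted p = 0.0012), where *Dusp5* is named because it was called. All 8 KO basal libraries exceeded all 5 WT basal libraries for both genes, beside 3.03% of all genes without overlap in either direction. With cytokines and in the interaction edgeR, DESeq2 and limma called 0 of 25 (beside 0.704% and 0.219% of all genes with edgeR), with 2 and 5 genes at an unadjusted p under 0.05 (beside 15.0% and 9.13%). Of 29 signal transducers, 2 rose with cytokines in WT cells (beside 13.9% of all genes called), *Gab2* (1.41, adjusted p = 3.76e-06) and *Src* (0.70, adjusted p = 1.83e-11), 1 rose in KO cells (beside 10.9%), *Gab2* (1.45), and 0 were called by edgeR, DESeq2 or limma between the genotypes under basal conditions, with cytokines or in the interaction (beside 2.68%, 0.704% and 0.219% of all genes). An unadjusted p under 0.05 was met by 11, 6 and 5 of the 29 in these comparisons, beside 22.4%, 15.0% and 9.13% of all genes.

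Genes known as targets of ERK signalling were called in both genotypes. Their list was chosen with earlier results of these data known, and its counts were not tested against the shares of all genes. Of 20 tested, 7 rose and 0 fell in WT cells with cytokines, beside 13.9% of all genes called, and 6 rose and 3 fell in KO cells, beside 10.9%, with list medians of 0.30 and 0.00. *Plaur*, the gene of the urokinase receptor, measured 13.8 to 27.0 CPM in WT basal, 72.8 to 151.8 CPM in WT cytokine, 28.7 to 59.8 CPM in KO basal and 95.7 to 145 CPM in KO cytokine libraries, and rose by a log2 fold change of 2.41 in WT (adjusted p = 1.55e-11) and 1.40 in KO cells (adjusted p = 3.04e-09). *Phlda1* measured 59.4 to 79.9, 196 to 318, 114 to 137 and 230.1 to 315 CPM in the same order, and rose by 1.91 (adjusted p = 1.65e-14) and 1.03 (adjusted p = 2.3e-11). The 3 genes that fell in KO cells were *Egr1*, *Egr2* and *Egr3*, early growth response transcription factors (-1.07, -0.79 and -0.77).

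Under basal conditions 4 of these 20 genes were higher and 0 lower in KO cells, beside 1.61% of all genes higher and 1.07% lower, with a list median of 0.32 beside 0.00 over all genes: *Plaur* (log2 fold change 1.05, adjusted p = 7.74e-05), *Phlda1* (0.91, adjusted p = 2.15e-07), *Egr1* (0.997, adjusted p = 0.0069) and *Fos* (0.59, adjusted p = 0.035). All KO basal libraries lay above all WT basal libraries, as for *Hbegf*, in 5 of the 20, *Plaur*, *Phlda1* and *Egr1* and also *Jun* and *Ier2*, which were under the threshold on the fold change (0.38 and 0.44). Groups did not overlap, in either direction, for 3.03% of all genes. In the other lists this was so for 2 of 25 feedback inhibitors, 4 of 29 signal transducers, 1 of 11 ligand-processing genes and 0 of 4 further family genes. Since the lists were chosen with earlier results of these data known, these counts and the list median are no independent test. *Fos* was just past the threshold on the fold change and under it when 1 mouse was left out, either WT replicate 1 (0.55), 2 (0.57) or 3 (0.57) or KO replicate 6 (0.57), 7 (0.54) or 8 (0.57), without the filter on expression (0.58), and without WT replicate 4 (0.55, adjusted p = 0.107), where over all alternatives the adjusted p was 0.0021 to 0.107. With cytokines 1 gene was lower in KO cells, beside 0.556% of all genes, *Egr2* (-1.22, adjusted p = 0.0391), and this call was lost without WT replicate 2 (-0.95, adjusted p = 0.175) or WT replicate 4 (-1.13, adjusted p = 0.136) and with limma (-1.08, adjusted p = 0.101). When WT replicate 1, or KO replicate 7 or 8, was the mouse left out, 2 of the 20 were called. In the same fits 558, 127 and 291 of all tested genes were called, beside 119 in the main fit. *Egr1* to *Egr3* and *Fos* are named because they were called, and *Jun* and *Ier2* for their groups without overlap.

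In the interaction 3 of the 20 were called, beside 0.219% of all genes, all with the smaller value in KO cells (0.184% of all genes): *Phlda1* (-0.88, adjusted p = 0.0018), *Plaur* (-1.01, adjusted p = 0.0301) and *Egr1* (-1.29, adjusted p = 0.0717). *Phlda1* kept its call whichever mouse was left out. *Plaur* lost it without WT replicate 2 (-0.96, adjusted p = 0.113) or WT replicate 4 (-0.94, adjusted p = 0.137), and 1 of the 20 genes was then left. In the same fits 23 and 18 of all tested genes were called, beside 37 in the main fit. *Egr1* lost its call without WT replicate 2 (adjusted p = 0.175), 3 (0.155), 4 (0.241) or 5 (0.132), and without KO replicate 1 (0.153), 2 (0.132), 3 (0.13), 4 (0.108), 5 (0.155) or 6 (0.155). Over all alternatives the adjusted p was 0.00084 to 0.241 for *Egr1* and 0.00078 to 0.137 for *Plaur*. In a fit with mice as replicate block 5 of the 20 were called, beside 80 of all 16893 genes in that fit, the same 3 and *Fos* (-0.84, adjusted p = 0.0023) and *Egr2* (-1.25, adjusted p = 0.0404). In KO cytokine libraries *Egr1* ranged from 76.1 over a median of 94.3 to 261 CPM, a wider spread than in the 8 KO basal libraries (238 to 306 CPM).

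**Figure D5:**
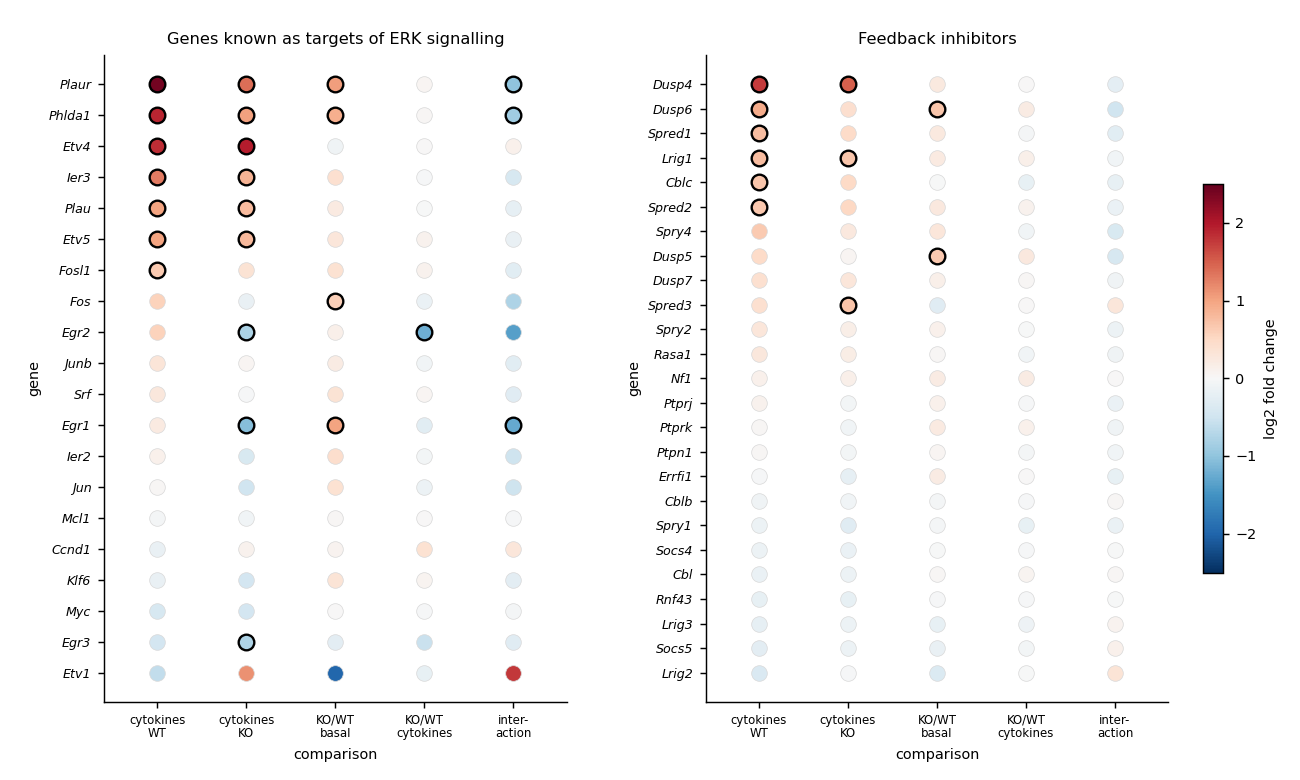
Log2 fold change (colour) of 20 genes known as targets of ERK signalling and of 25 feedback inhibitors in the 5 comparisons, ordered by their value with cytokines in WT; black rings mark genes past both thresholds. In the basal KO against WT column, 4 targets and 2 inhibitors are ringed, all of them higher in KO cells.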

How the data were processed

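The authors aligned strand-specific paired reads to mm39 with STAR 2.7.10b, counted them per gene with featureCounts 2.0.6 and deposited raw counts. The authors also deposited log2 normalized counts, used only with limma. Counts of 1 to 10 were even in 83.8% of cases, so mates may have been counted separately and counting error is then larger than the counts imply. The strand setting of counting is not given in the sources used here.

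Genes with a mean normalized count over 10 entered edgeR 4.0.16 (R 4.3.3; TMM; quasi-likelihood test over 4 groups; Benjamini-Hochberg adjustment; thresholds of 0.1 for the adjusted p and 1.5 for the fold change), after a test on simulated data. Alternatives were DESeq2 1.42.0 and its size factors, limma 3.58.1, other filters and thresholds, a fit limited to the groups in question, a replicate block by mouse, and mice left out in turn. Basal and cytokine libraries of a mouse are paired by the animal; after subtraction of group means, correlations within a mouse were 0.00051 to 0.254 (median 0.106). No 2 libraries of a group agreed within sampling noise (lowest chi-square per degree of freedom 8.55). CPM were scaled by TMM. Exon lengths, positions and promoters are from GRCm39 with GENCODE mouse release 39, a later one than the authors used, and 16322 of 16893 genes had a length.

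The 10 genes and the lists were chosen with earlier results of these data known. Of each list up to 2 of the largest rises and 2 of the largest falls with cytokines in WT are named, if past both thresholds, and all genes of a list of up to 6. The NF-kB consensus replaced a narrower pattern after that was searched; neither matched in the 10 windows. *Spry3* was not listed in the table used here.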

Additional observations from a re-analysis of the deposited data

Results flagged for a closer look

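Among 40 sets of values (10 genes in 4 groups), chance alone would place about 1 in 20 with a sample far from the others, and 1 was found. *Areg* in KO basal replicate 7 measured 5.94 CPM, whereas the other 7 libraries of that group lay between 1.74 and 3.21 CPM.

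The response of *Hbegf* to IL17A and TNFα differed between the genotypes by a log2 fold change of -0.76, KO minus WT (edgeR, adjusted p = 0.0519). This call was lost in 4 of the fits that left out 1 mouse. KO minus WT was 0.79 under basal conditions and 0.03 with cytokines.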

How the results depend on the processing

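Of 970 recomputed values of the 10 genes, 918 kept their direction and side of the thresholds, 8 lost a call, 5 gained one and 39 changed sign. Without a threshold on the fold change 7 genes passed in KO cells with cytokines (beside 35.8% of all genes) and 3 between the genotypes under basal conditions (beside 13.6%). With an adjusted p under 0.05 the interaction had 0 calls, and leaving out 1 mouse gave 0 to 1. The replicate block, which pairs the libraries of a mouse, changed no other call of the 10 genes than that of *Btc* in WT (above). The values that changed sign were small, and what moved them was not tested. For *Egfr* with cytokines in WT the sign changed with filterByExpr (-0.0013) and with mice left out (-0.017 to 0.025). The latter ranges were -0.011 to 0.052 for *Erbb3* and -0.057 to 0.31 for *Areg* in WT, and -0.048 to 0.014 for *Egfr* in KO cells. Between the genotypes they were -0.0081 to 0.084 for *Egfr* and -0.16 to 0.022 for *Tgfa* under basal conditions, and -0.011 to 0.051 for *Egfr*, -0.10 to 0.11 for *Areg*, -0.049 to 0.11 for *Hbegf* and -0.021 to 0.088 for *Tgfa* with cytokines. In the interaction they were -0.043 to 0.016 for *Egfr*, -0.25 to 0.0061 for *Ereg* and -0.18 to 0.17 for *Btc*, which was also 0.080 with limma, 0.0043 without a filter, 0.00087 with filterByExpr and 0.040 with the replicate block.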
